A study of Mus musculus with 25 samples.

Results

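The comparison asked how gene expression in induced macrophages differed when the cells had received short hairpin RNA (shRNA) against Pou2af1, a coactivator of the B cell lineage, or a scramble control. The arrays are those whose titles name the Pou2af1 knockdown (n = 2) or the scramble shRNA without the hepatocyte prefix (n = 2), 4 of the 25 arrays of the series. Induced macrophages are macrophage-like cells made from C10, a mouse pre-B cell line, in which an estradiol-responsive form of the myeloid factor C/EBPalpha is switched on. The scramble cells carried a lentiviral scramble shRNA, were selected with puromycin for 2 days and were then converted with 100 nM estradiol in medium that held IL-3 and CSF-1 at 10 nM. The cells of the other group received a lentiviral shRNA against Pou2af1 and the same 2 days of selection before conversion; their labels give no further culture conditions, no time of harvest and no hairpin sequence. Arrays of cells with an shRNA against Ebf1 (n = 2), a factor of early B cells, entered the model as the remaining group. Their labels give the same 2 days of selection but no estradiol or cytokine concentrations. All groups derive from 1 cell line, and 100 ng of total RNA per sample was amplified before hybridisation. Levels are log2 signals per probe set.

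Pou2af1, also known as OBF-1 or OCA-B, binds no DNA by itself. It is tethered to the octamer sequence ATGCAAAT by the POU factors Pou2f1 and Pou2f2, and it is known for its part in immunoglobulin transcription and in late B cell development. C/EBPalpha converts B lineage cells by switching off their B cell genes and, with PU.1, switching on macrophage genes.

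The target itself was not lower in the arrays labelled Pou2af1 shRNA. Its single probe set read 11.25 and 11.06 with scramble shRNA, 11.34 and 11.26 in the arrays labelled Pou2af1 shRNA, and 12.00 and 11.81 with Ebf1 shRNA. Both labelled arrays lay above both scramble arrays and below both Ebf1 shRNA arrays. The difference from scramble was 0.14 ± 0.12 (log2 fold change ± SE, adjusted p = 0.495), and it ran from 0.05 to 0.24 when 1 array was left out. The labels therefore could not be checked through the targeted RNA, protein was not measured, and every direction below rests on the labels as deposited. Ebf1 stood at 8.31 and 8.38 with scramble shRNA and at 8.20 and 8.34 in the arrays labelled Pou2af1 shRNA, a difference of −0.08 ± 0.11 (adjusted p = 0.711), while its other 4 probe sets differed by 0.22 to 0.76.

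Of 12484 genes tested, 848 were higher and 642 were lower in the arrays labelled Pou2af1 shRNA, so 11.9% of genes were called, 6.79% higher and 5.14% lower. These shares are the background beside which each list count below stands. A gene was called where its adjusted p in limma was under 0.05. The higher genes changed by more than the lower ones: 275 rose by at least 1 on the log2 scale and 52 by at least 2, against 84 and 2 that fell by as much. The median difference was 0.78 among the called higher genes, −0.64 among the called lower genes and −0.03 over all genes tested. In 84 of the higher genes both scramble arrays lay under the 40th percentile of their array (5.57 to 5.60), so those fold changes are limited by the background signal and are no exact sizes. The same held for both labelled arrays in 42 of the lower genes. The count of called genes depended on each array: it was 399 without scramble replicate 1, 406 without scramble replicate 2, 355 without Pou2af1 replicate 1 and 450 without Pou2af1 replicate 2. In all 4 of these fits 243 of the 1490 genes were called, 192 higher and 51 lower, and 877 were called in none.

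**Figure D1:**
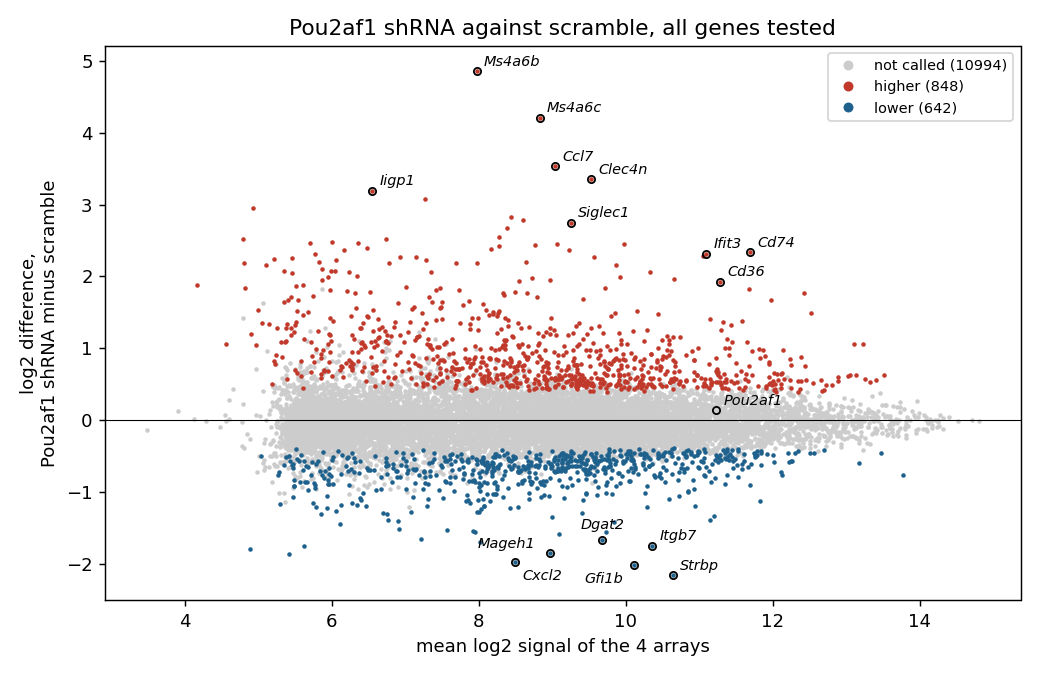
Log2 difference between the arrays labelled Pou2af1 shRNA and scramble (vertical axis) against the mean log2 signal of the 4 arrays (horizontal axis), 1 point per tested gene. The 848 called higher genes (red) reach 4.85 at Ms4a6b, the 642 called lower genes (blue) reach −2.15 at Strbp, and Pou2af1 lies among the 10994 genes not called (grey).

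The cells carried macrophage and pre-B markers side by side in every group. All 10 macrophage markers were above the 40th percentile in both labelled arrays, and 8 of 10 were in both scramble arrays, where Adgre1 and Mrc1 lay below it. Their mean log2 signal was 10.50 and 10.36 in the scramble arrays and 11.19 and 11.15 in the labelled arrays. Over the 8 markers that were above the percentile in both scramble arrays it was 11.86 and 11.82 against 12.21 and 12.20. Of the pre-B markers, 9 were on the array and 8 were above that percentile in all 6 arrays, with a mean over the 9 of 8.28 and 8.36 against 8.80 and 8.81. Rag1, the recombinase gene of lymphocytes, was the exception, at 3.26 and 3.17 against 3.13 and 3.01. The pre-B marker Dntt went the other way from that mean, at 6.35 and 6.40 against 5.71 and 6.34 (−0.35 ± 0.22, adjusted p = 0.343). In a bulk sample, more cells of a type and more RNA per cell cannot be told apart.

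**Figure D2:**
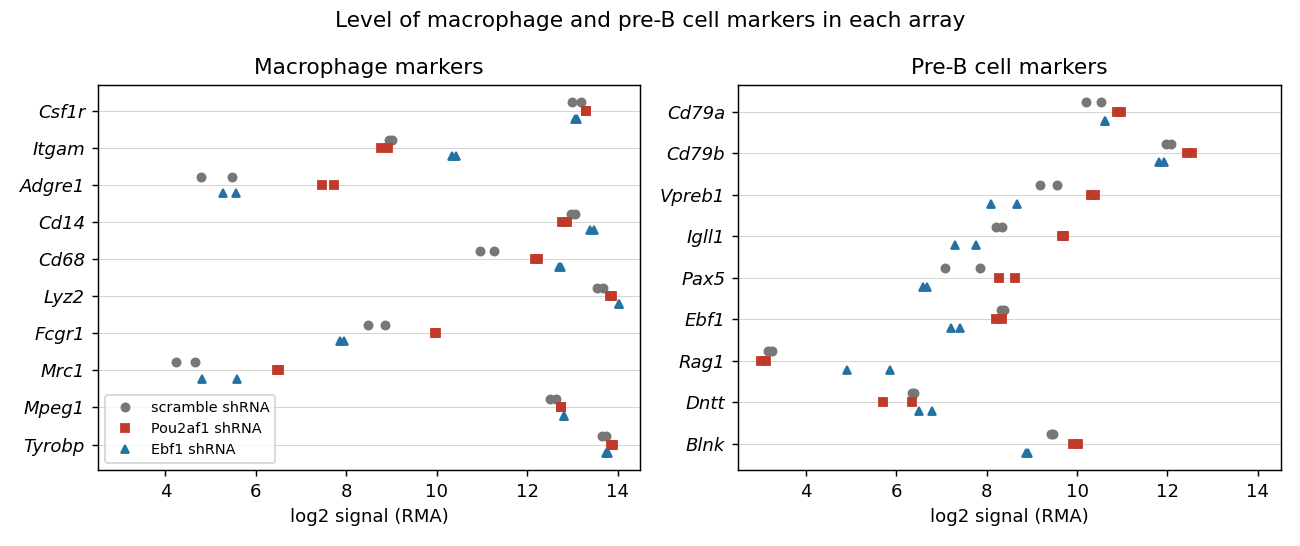
Log2 signal (horizontal axis) of the 10 macrophage and 9 pre-B markers in each array; grey circles are scramble, red squares the arrays labelled Pou2af1 shRNA and blue triangles Ebf1 shRNA. The labelled arrays lie to the right of the scramble arrays for Adgre1, Mrc1, Fcgr1 and Cd68 among macrophage markers and for Igll1 and Vpreb1 among pre-B markers, while Csf1r, Cd14 and Tyrobp are high in all 6 arrays. For the pre-B markers Dntt and Rag1 the labelled arrays lie to the left.

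Of the 8 macrophage markers above the percentile with scramble shRNA, Fcgr1 and Cd68 were called higher and 0 lower. Fcgr1, the high-affinity IgG receptor, rose from 8.85 and 8.47 to 9.99 and 9.96, by 1.31 ± 0.14 (adjusted p = 0.00493). Cd68, a lysosomal glycoprotein of macrophages, rose from 10.95 and 11.26 to 12.17 and 12.23, by 1.10 ± 0.13 (adjusted p = 0.00616). Both kept their calls when any 1 array was left out. Adgre1, a surface antigen of mature macrophages, read 5.47 and 4.78 against 7.72 and 7.45 (2.46 ± 0.24), and Mrc1, the mannose receptor, 4.66 and 4.23 against 6.51 and 6.46 (2.04 ± 0.27). Both passed the filter on dim probe sets only through the labelled arrays, so their calls are not counted here. Adgre1 could not be tested without either of those arrays. Mrc1 lost its call without scramble replicate 2 (1.83) and could not be tested without either labelled array. The growth factor receptor Csf1r was already at 13.18 and 12.99 with scramble shRNA and stood at 13.31 and 13.30 (0.22 ± 0.11, adjusted p = 0.24). The integrin Itgam read 9.0 and 8.95 against 8.93 and 8.77, a difference of −0.13 ± 0.11 (adjusted p = 0.486).

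Markers of other blood and stromal cells were mostly dim, but those of granulocytes were mixed. Of 9 granulocyte markers on the array, 5 were above the 40th percentile in both scramble arrays. S100a8 (14.23 and 14.08), Mmp8 (12.32 and 12.27) and Camp (11.49 and 11.59) were bright there. The mean of the granulocyte markers was 7.77 and 7.82 with scramble shRNA and 7.82 and 7.69 in the labelled arrays, with Camp and S100a8 called lower. Mpo and Ngp lay under the 40th percentile in all 6 arrays, and Elane in all but Pou2af1 replicate 1 (4.91 and 4.71 against 5.67 and 4.97). Of 29 mast cell, dendritic cell, T and NK cell or fibroblast markers on the array only 10 could be tested; limma called 0 of them, and 1 had an unadjusted p under 0.05. Their means lay between 4.60 and 5.75 in the 4 arrays. The erythroid and megakaryocyte markers, with 1 called in each direction, had means of 5.86 and 5.95 against 5.80 and 5.93. Actin 3′ minus 5′ signal, a measure of RNA integrity, was 0.05 and −0.06 with scramble shRNA and −0.20 and −0.08 in the labelled arrays, and for Gapdh it was 0.74 and 0.47 against 0.61 and 0.59.

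The octamer factors and genes linked to Pou2af1 gave 4 called higher and 0 lower of 12 tested, with differences from −0.22 to 1.93 and a median of 0.24; without 1 array the 4 became 1 (either scramble array) or 2 (either labelled array). Cd36, a fatty acid and lipoprotein receptor and a known target of octamer factors, read 10.35 and 10.30 with scramble shRNA and 12.24 and 12.26 in the labelled arrays. It rose by 1.93 ± 0.10 (adjusted p = 0.000497), its other 2 probe sets differed by 1.93 and 2.75, and the call held in each fit that left 1 array out. Ighm, the immunoglobulin mu heavy chain, read 8.84 and 8.81 against 9.63 and 10.09 (1.04 ± 0.16, adjusted p = 0.0144). That call was lost without scramble replicate 1 (1.06) or 2 (1.02), the other Ighm probe sets differed in both directions, and with shared probe sets left out the difference was 0.34 and not called. Cd79a and Cd79b, the signalling chains of the B cell receptor, were called at 0.56 ± 0.13 and 0.45 ± 0.10, and neither was called once any 1 array was left out (0.40 to 0.72 and 0.40 to 0.51). The octamer factor gene Pou2f2 read 6.20 and 6.48 against 6.63 and 6.57 (0.26 ± 0.12, adjusted p = 0.218). Jchain, Ms4a1, Cxcr5 and Tcl1, genes of mature B and plasma cells, were above the 40th percentile in fewer than 2 of the 6 arrays and were not tested.

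Of 23 transcription factors of the B lineage, 4 were higher and 2 lower (6.79% and 5.14% over all genes), with a median of −0.02. Irf4, a factor of light chain rearrangement and of macrophage polarization, rose from 6.56 and 6.65 to 8.01 and 7.75, by 1.27 ± 0.15 (adjusted p = 0.00606); the call ended without scramble replicate 1 (1.23). Id3, an inhibitor of E proteins, fell from 9.35 and 9.17 to 8.34 and 8.30, by 0.94 on the log2 scale (SE 0.11, adjusted p = 0.00576), in every fit that left 1 array out. The E protein Tcf4 (0.64 ± 0.11) and Myb (0.58 ± 0.12) were called with all arrays and in no fit without 1 of them, at 0.58 to 0.71 and 0.48 to 0.67. Pax5, the factor that maintains B cell identity, read 7.08 and 7.85 with scramble shRNA and 8.63 and 8.28 in the labelled arrays. The groups did not overlap, but the scramble arrays lay 0.77 apart and the difference of 0.99 ± 0.26 was not called (adjusted p = 0.0576). Without scramble replicate 2 it was called, at 1.38. Erg, an ETS factor, was called at −0.86 ± 0.15, and its call ended without scramble replicate 1 (−0.67) and without either labelled array (−0.78 and −0.94).

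The pre-B receptor and B cell signalling genes were more often higher than lower. Of 25 tested, 12 rose and 2 fell, with a median of 0.53. The 12 became 3 without scramble replicate 1, 4 without scramble replicate 2 or Pou2af1 replicate 1, and 5 without Pou2af1 replicate 2, and no gene was then called lower. Il7r, the interleukin 7 receptor on which early lymphocytes grow, read 7.14 and 6.98 with scramble shRNA against 9.44 and 9.52 in the labelled arrays, a rise of 2.42 ± 0.10 (adjusted p = 0.000366). Igll1, the lambda 5 chain of the pre-B receptor, rose from 8.33 and 8.21 to 9.68 and 9.70 (1.42 ± 0.16, adjusted p = 0.00577), and its other probe set, used where sets shared between transcripts were left out, differed by 0.53 and was not called. Siglecg, an inhibitory sialic acid receptor of B cells, rose from 9.88 and 9.52 to 10.80 and 10.81 (1.11 ± 0.14, adjusted p = 0.00751). These 3 calls held without any 1 array. The partner chain Vpreb1, at 9.55 and 9.19 against 10.31 and 10.40 (0.99 ± 0.21), and the adaptor Blnk, at 9.47 and 9.42 against 10.02 and 9.92 (0.53 ± 0.10), did not hold theirs, with ranges of 0.80 to 1.17 and 0.47 to 0.58. Vpreb3, a further chain of this kind, was called lower at −0.77 ± 0.14 and in no fit without 1 array (−0.84 to −0.70). Rag1, Rag2 and Arpp21 were not tested, being above the 40th percentile in fewer than 2 of the 6 arrays.

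Among transcription factors of macrophages, 8 of 23 tested were higher and 1 lower, with a median of 0.27. The 8 became 3 without either scramble array or Pou2af1 replicate 1 and 4 without Pou2af1 replicate 2. Id2, an inhibitor of E proteins that promotes myeloid over B cell fate, rose from 7.21 and 7.20 to 8.66 and 8.58 (1.42 ± 0.10, adjusted p = 0.00137); its probe set may match several transcripts, and another probe set, used where such sets were left out, differed by 0.37 and was not called. Tfec, a macrophage-restricted relative of Mitf, rose from 10.02 and 10.11 to 11.10 and 11.14 (1.06 ± 0.10, adjusted p = 0.00277). Bhlhe41, a repressor found in self-renewing tissue macrophages and in some B cells, rose from 5.54 and 6.02 to 7.21 and 7.21 (1.43 ± 0.18, adjusted p = 0.00683). All 3 calls held without any 1 array. Maf read 4.99 and 4.78 against 6.18 and 6.51, and its 5 other probe sets differed by −0.79 to 0.13. It passed the filter only through the labelled arrays, so its difference is given with no test, though the 8 include it. The leading factors of the conversion were not called: PU.1 (Spi1) read 11.33 and 11.74 against 11.80 and 11.90 (0.32 ± 0.20, adjusted p = 0.347), and Cebpb 12.32 and 12.24 against 12.38 and 12.36 (0.09 ± 0.10, adjusted p = 0.59). Irf8, a factor of monocyte development, stood at 11.25 and 11.20 against 11.43 and 11.55 (0.27 ± 0.10, adjusted p = 0.136). The probe set of Cebpa lay under the 40th percentile in all 6 arrays.

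The MS4A family, 4-pass membrane proteins that include the B cell antigen CD20 (Ms4a1), held the highest differences of the comparison. Of 16 members on the array 11 were tested, and 7 rose and 0 fell, with a median of 1.37; 6 remained called when any 1 array was left out. Ms4a6b read 5.83 and 5.26 with scramble shRNA and 10.51 and 10.30 in the labelled arrays, a difference of 4.85 ± 0.20 (adjusted p = 0.000366). Scramble replicate 2 was under the 40th percentile and replicate 1 close to it, so this size is limited by the background, and a second Ms4a6b probe set, dim in 5 of 6 arrays, differed by 1.94. Ms4a6c rose from 6.92 and 6.54 to 10.96 and 10.91 (4.21 ± 0.15, adjusted p = 0.000366), while its second probe set differed by 0.54. Ms4a6d, brighter at the outset, rose from 10.73 and 10.56 to 12.01 and 12.02 (1.37 ± 0.11, adjusted p = 0.00164). Ms4a4c, an interferon-induced member, rose from 5.49 and 5.45 to 7.76 and 8.23 (2.53 ± 0.17, adjusted p = 0.00137), Ms4a7 from 4.90 and 5.65 to 7.96 and 7.39 (2.40 ± 0.29), and Ms4a8a from 6.39 and 5.62 to 8.07 and 8.49 (2.27 ± 0.27). Both scramble arrays lay under the 40th percentile for Ms4a4c, and replicate 1 did for Ms4a7, so these sizes are limited by the background too. In each of these 6 genes both labelled arrays lay above both scramble arrays, as they did in 27.2% of all genes tested (32.5% lay apart the other way, 59.7% either way). The family is a set of close relatives in 1 gene cluster, and the probe sets of Ms4a4c and Ms4a6d carry suffixes that mark possible matches to several transcripts. Ms4a4d differed by 0.99 but passed the filter only through the labelled arrays. Its difference is therefore given with no test, though the 7 include it. Ms4a1, the B cell member, read 3.96 and 3.85 against 3.94 and 3.94 and was not tested.

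**Figure D3:**
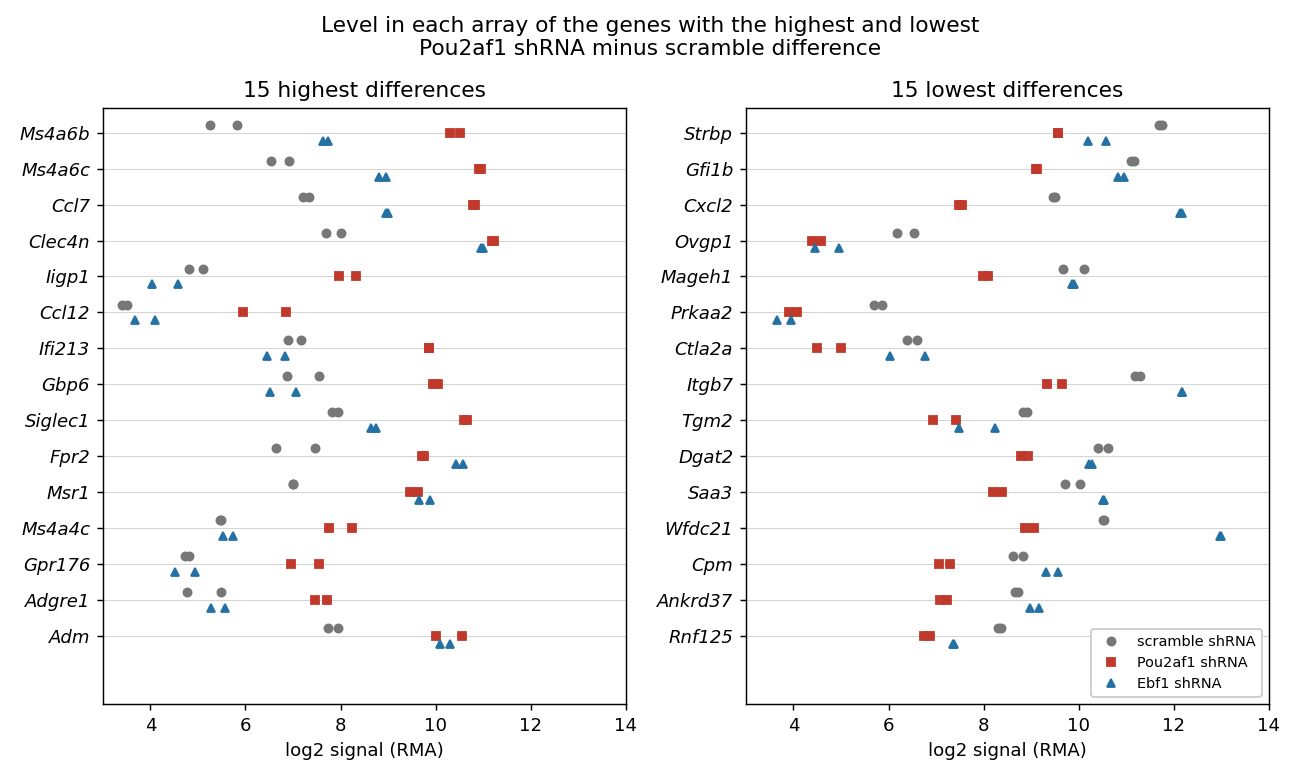
Log2 signal (horizontal axis) in each of the 6 induced macrophage arrays for the 15 highest and 15 lowest differences among called genes whose groups did not overlap. Red squares (labelled Pou2af1 shRNA) and grey circles (scramble) are apart in all 30 genes by construction; blue triangles (Ebf1 shRNA) lie beside the red for Clec4n, Msr1 and Adm, beside the grey for Iigp1, Ifi213 and Gbp6, and beyond the grey for Cxcl2 and Wfdc21.

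Macrophages take up particles and lipids through scavenger, Fc and lectin receptors. Of 33 macrophage surface genes tested, 13 rose and 0 fell (median 0.25), and 8 to 11 rose without 1 array. Genes such as Adgre1 and Mrc1, which passed the filter only through the labelled arrays, were not taken out of the 13. Siglec1, the sialoadhesin of macrophages, rose from 7.95 and 7.81 to 10.66 and 10.59 (2.75 ± 0.10, adjusted p = 0.000366), with 2.77 and 2.47 in its other probe sets. Msr1, the class A scavenger receptor, rose from 7.0 and 7.0 to 9.64 and 9.47 (2.55 ± 0.12, adjusted p = 0.000467), and its 3 other probe sets differed by 2.64 to 2.81. Pirb, an inhibitory immunoglobulin-like receptor, rose from 7.95 and 8.05 to 9.86 and 10.02 (1.94 ± 0.11, adjusted p = 0.000681). Of 13 C-type lectin genes tested 5 rose and 0 fell (median 0.22), and 3 rose without any 1 array. Clec4n, the receptor dectin-2 for fungal mannans, rose from 8.02 and 7.69 to 11.23 and 11.18 (3.35 ± 0.13, adjusted p = 0.000366). Clec4a3 rose from 7.66 and 7.44 to 9.94 and 10.04 (2.44 ± 0.12) and the activation antigen Cd69 from 7.78 and 7.69 to 9.71 and 9.72 (1.98 ± 0.16). Clec4d, a partner of Clec4n in fungal recognition, read 13.41 and 13.48 against 13.06 and 13.19 (−0.32 ± 0.10, adjusted p = 0.105).

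The monocyte attractants Ccl2 and Ccl7 were higher and the neutrophil attractant Cxcl2 was lower. Of 19 CC chemokine and receptor genes, 7 rose and 0 fell, with a median of 0.10, and 4 or 5 rose without 1 array. Ccl7 read 7.33 and 7.21 with scramble shRNA and 10.82 and 10.79 in the labelled arrays (3.53 ± 0.10, adjusted p = 0.000234). Ccl2, already bright at 12.58 and 12.81, rose to 13.79 and 13.72 (1.06 ± 0.11, adjusted p = 0.00474), and Ccl4 rose from 7.54 and 7.65 to 9.43 and 9.32 (1.78 ± 0.13, adjusted p = 0.0015). Ccr2, the receptor of Ccl2 and Ccl7, rose from 5.90 and 5.48 to 7.91 and 7.85 (2.19 ± 0.15, adjusted p = 0.00137), with 2.90 to 3.48 in its 3 other probe sets. Ccl12 read 3.51 and 3.41 against 6.86 and 5.95. It passed the filter only through the labelled arrays, so its difference is given with no test, though the 7 include it. Ccl3 stood at 12.85 and 12.82 against 13.06 and 13.02 (0.20 ± 0.09, adjusted p = 0.212). Of 9 CXC chemokine and receptor genes, 1 rose and 2 fell (6.79% and 5.14% over all genes), and 1 fell without any 1 array. Cxcl2 fell from 9.46 and 9.51 to 7.54 and 7.49, by 1.97 on the log2 scale (SE 0.09, adjusted p = 0.000467). Its relative Cxcl3 read 10.02 and 10.10 against 9.40 and 9.34 and was called at −0.69 ± 0.13, a call lost without any 1 array (−0.73 to −0.65).

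Of the interferon system, single cytokine, regulator and sensor genes and 27 of 47 antiviral effectors were called higher. Type I interferons are secreted by cells that sense foreign nucleic acid, and they switch on antiviral genes through the interferon-stimulated response element. Ifnb1, interferon beta itself, read 5.75 and 5.82 with scramble shRNA and 7.37 and 7.28 in the labelled arrays (1.54 ± 0.12, adjusted p = 0.00184). Irf7, the factor that amplifies interferon production, rose from 10.84 and 10.95 to 12.27 and 12.27 (1.38 ± 0.10, adjusted p = 0.0015). Among the sensors, Tlr3 rose from 8.97 and 9.0 to 10.19 and 10.41 (1.31 ± 0.11), the RNA helicase Dhx58 from 9.97 and 9.90 to 11.06 and 11.03 (1.11 ± 0.12) and the nucleic acid sensor Zbp1 from 10.88 and 10.94 to 11.97 and 12.01 (1.08 ± 0.09). Each of these 5 calls held without any 1 array. Of the 32 receptor, signalling and sensor genes tested, 12 rose and 0 fell (median 0.33), and 5 or 6 rose without 1 array.

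Of 47 antiviral effector genes tested, 27 rose and 1 fell, with a median of 0.53, and 14 or 15 rose without 1 array. Phf11d rose from 8.88 and 8.64 to 11.22 and 11.20 (2.45 ± 0.12, adjusted p = 0.000497). Ifit3, of the family that binds viral RNA, rose from 10.06 and 9.81 to 12.23 and 12.28 (2.31 ± 0.13, adjusted p = 0.000704), and its relative Ifit1bl1 from 9.97 and 9.86 to 12.22 and 12.16 (2.28 ± 0.10, adjusted p = 0.000381). The antiviral GTPase Mx1 rose from 9.25 and 9.36 to 11.34 and 11.39 (2.06 ± 0.10) and the exonuclease Isg20 from 9.74 and 9.61 to 11.75 and 11.52 (1.96 ± 0.12). All 5 held without any 1 array. Parp12 was the 1 effector called lower, at −0.74 ± 0.11, and its call ended without scramble replicate 2 (−0.65) or either labelled array (−0.76 and −0.71).

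The interferon-induced GTPases, which attack intracellular pathogens, and the p200 family of DNA sensors also held called genes that were all higher. Of 17 GTPase and Schlafen genes tested 9 rose and 0 fell (median 0.48), and 2 to 4 rose without 1 array. Gbp6 rose from 7.54 and 6.88 to 10.06 and 9.94 (2.79 ± 0.26, adjusted p = 0.00284) and Slfn8 from 11.39 and 11.23 to 12.28 and 12.33 (1.00 ± 0.11, adjusted p = 0.00494). Iigp1 read 5.11 and 4.81 against 8.33 and 7.98, with all scramble and Ebf1 shRNA arrays under the 40th percentile. It passed the filter only through the labelled arrays, so its difference is given with no test, though the 9 include it. Of 8 genes of the p200 family 6 rose and 0 fell, with a median of 1.12, and 3 or 4 rose without 1 array. The 6 include Mndal, which passed the filter only through the labelled arrays. Ifi213 rose from 7.17 and 6.89 to 9.86 and 9.85 (2.83 ± 0.16, adjusted p = 0.000714), Ifi207 from 8.99 and 8.58 to 11.04 and 10.86 (2.16 ± 0.16) and Ifi204 from 8.60 and 8.55 to 10.33 and 10.21 (1.69 ± 0.10). These families lie in clusters of close relatives, and a probe set may pick up more than 1 of them.

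The promoters of 3 of these genes are shown because they hold the response element, spelled GAAA, any 2 bases and GAAA again on either strand, within the 250 bases before the start site. They are RefSeq sequences of GRCm38.p6, printed in the direction of the gene, with each match in capitals, and were chosen after the values were seen.
Ifit3, chr19:34583279-34583528, plus strand: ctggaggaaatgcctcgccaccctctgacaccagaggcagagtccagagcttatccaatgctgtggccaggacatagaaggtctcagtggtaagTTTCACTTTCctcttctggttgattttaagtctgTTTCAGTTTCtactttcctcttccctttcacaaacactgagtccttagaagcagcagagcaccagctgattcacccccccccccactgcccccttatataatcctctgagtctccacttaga
Ifi213, chr1:173599273-173599522, minus strand: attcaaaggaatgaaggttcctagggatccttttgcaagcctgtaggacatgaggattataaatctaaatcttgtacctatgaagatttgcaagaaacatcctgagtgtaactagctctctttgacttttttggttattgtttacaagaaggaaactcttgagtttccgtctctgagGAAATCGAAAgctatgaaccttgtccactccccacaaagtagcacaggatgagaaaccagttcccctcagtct
Ifi207, chr1:173741810-173742059, minus strand: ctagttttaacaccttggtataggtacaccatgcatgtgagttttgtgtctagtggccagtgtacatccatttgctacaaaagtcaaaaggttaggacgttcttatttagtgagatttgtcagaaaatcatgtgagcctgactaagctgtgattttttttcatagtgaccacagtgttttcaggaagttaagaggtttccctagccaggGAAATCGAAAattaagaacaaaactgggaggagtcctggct
In Ifit3 the matches begin 156 and 122 bases before the start site, in Ifi213 73 bases and in Ifi207 41 bases before it. A gene with promoter windows was counted where any of them held the element. That was so for 6.81% of 690 genes called higher, 2.97% of 539 called lower and 3.66% of 10088 tested. Counted per window, a different measure, the element was in 3.44% of all 32851 windows. A window runs from 250 bases before to 50 bases after the start. Among the antiviral effector genes with a window, 15 of 37 held it (40.5%), and 9 of the 20 that were called higher. The element was also in windows of Ifi203 and Oas1a, not called, and of Saa3 and Vegfa, called lower, among others.

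The octamer ATGCAAAT, where Pou2af1 acts, was sought on either strand and counted by gene as above. It was found in 2.46% of genes called higher, 1.86% of those called lower and 1.58% of those tested. Per window it was in 1.74% of all windows. It was in windows of Blnk and C1ra, called higher, and of Vpreb3, called lower, among others. Windows that hold it are shown for a pair of genes called higher, chosen after the values were seen. The first is from Ms4a4c (1 match, 170 bases before the start) and the second from Il18 (matches 37 and 16 bases before it). Matches are again in capitals.
Ms4a4c, chr19:11407411-11407660, plus strand: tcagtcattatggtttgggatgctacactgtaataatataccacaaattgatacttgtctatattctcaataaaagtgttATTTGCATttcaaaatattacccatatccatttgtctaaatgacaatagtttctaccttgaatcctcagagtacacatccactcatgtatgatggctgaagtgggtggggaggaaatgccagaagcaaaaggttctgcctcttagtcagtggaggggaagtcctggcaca
Il18, chr9:50554450-50554699, plus strand: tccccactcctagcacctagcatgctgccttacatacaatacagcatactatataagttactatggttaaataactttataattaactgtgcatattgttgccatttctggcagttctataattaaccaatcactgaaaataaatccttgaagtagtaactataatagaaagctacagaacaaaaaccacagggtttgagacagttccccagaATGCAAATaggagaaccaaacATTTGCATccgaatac
Il18, an interleukin released after inflammasome cleavage, rose from 9.62 and 9.39 to 10.39 and 10.47 (0.92 ± 0.12, adjusted p = 0.00724) in every fit without 1 array. The same 4 sets were genes called higher, called lower and tested, each counted by gene, and all windows. The PU.1 box GAGGAAGT was in 6.52%, 3.15%, 3.79% and 3.2% of them, and the STAT motif TTCNNNGAA in 7.54%, 8.91%, 8.36% and 8.3%. The C/EBP motif TTGCGCAA was in at most 0.371% of any of these sets, and the NF-kappaB motif, GGGA, any 2 bases and TTCC, in 2.32%, 2.41%, 1.84% and 1.47%. A match describes the letters of the window and is not evidence of binding.

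MHC class II molecules present antigen to helper T cells. Of 17 class II and costimulation genes 7 rose and 0 fell (median 0.50), and 3 or 4 rose without 1 array. Cd74, the invariant chain, read 10.32 and 10.73 with scramble shRNA and 12.82 and 12.90 in the labelled arrays (2.34 ± 0.15, adjusted p = 0.0011). Cd40, the costimulatory receptor for helper T cells, rose from 7.76 and 7.41 to 9.53 and 9.51 (1.94 ± 0.20, adjusted p = 0.00436) and H2-Eb1, a class II beta chain, from 7.0 and 6.90 to 7.93 and 8.02 (1.03 ± 0.10, adjusted p = 0.00349). Of 17 class I genes 3 rose and 0 fell (6.79% and 5.14% over all genes), with a median of 0.14. Without any 1 array 1 rose: H2-T24, a nonclassical class I gene, from 10.64 and 10.71 to 12.04 and 11.81 (1.25 ± 0.11, adjusted p = 0.00277).

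Of 22 Toll-like receptor and adaptor genes 7 rose and 0 fell (median 0.25), and 4 or 5 rose without 1 array. Besides Tlr3, the bacterial RNA receptor Tlr13 rose from 7.32 and 7.35 to 8.87 and 8.88 (1.54 ± 0.09, adjusted p = 0.000945). Cd180, a Toll-like protein of B cells and macrophages, rose from 8.89 and 8.85 to 10.06 and 10.08 (1.20 ± 0.09, adjusted p = 0.00164), and its partner Ly86 from 6.77 and 6.31 to 8.03 and 8.34 (1.64 ± 0.19, adjusted p = 0.0059). Among 22 genes of NF-kappaB and interleukin 1, 3 rose and 0 fell (6.79% and 5.14% over all genes), with a median of 0.11. Tnfaip3, the ubiquitin-editing brake on NF-kappaB, rose from 9.30 and 8.93 to 10.56 and 10.65 (1.49 ± 0.15, adjusted p = 0.00394). The mRNA-destabilising protein gene Zfp36, another brake on inflammation, rose from 11.90 and 12.01 to 12.81 and 12.86 (0.88 ± 0.10, adjusted p = 0.00601). The receptor pair, the brakes and Tlr13 held their calls without any 1 array.

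Cytokine genes moved in both directions. Of 27 tested, 11 rose and 3 fell (median 0.12), and without 1 array 4 or 5 rose and 1 or 2 fell. The 11 include Hpgds, which passed the filter only through the labelled arrays. Tnfsf10, the death ligand TRAIL, rose from 6.73 and 6.68 to 8.19 and 8.36 (1.58 ± 0.11, adjusted p = 0.00137) and the T cell ligand Tnfsf9 from 10.22 and 10.23 to 11.07 and 11.07 (0.84 ± 0.10, adjusted p = 0.00631). Hpgd, which inactivates prostaglandins, rose from 8.91 and 8.70 to 10.57 and 10.71 (1.84 ± 0.14, adjusted p = 0.0015), whereas the prostaglandin E synthase Ptges read 6.23 and 6.56 against 4.81 and 5.56 and was called at −1.21 ± 0.26. The Ptges call remained in 1 of the 4 fits without an array, with differences of −1.59 to −0.83. Both labelled arrays lay under the 40th percentile for Ptges, so its size is limited by the background. Osm, oncostatin M, fell from 8.71 and 8.51 to 7.42 and 7.26, by 1.27 on the log2 scale (SE 0.12, adjusted p = 0.00331). Of 28 cytokine receptor genes 8 rose and 1 fell (median 0.26), and 2 to 4 rose without 1 array. Tnfrsf13c, the BAFF receptor of B cells, rose from 8.58 and 8.19 to 9.60 and 9.70 (1.26 ± 0.17, adjusted p = 0.00821).

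Complement, lysosomal and cell death genes held single members with clear differences. C1ra, a protease of the first complement component, rose from 8.30 and 8.11 to 9.47 and 9.37 (1.21 ± 0.11, adjusted p = 0.00293), and the anaphylatoxin receptor C3ar1 from 11.35 and 11.43 to 12.26 and 12.24 (0.86 ± 0.10, adjusted p = 0.00582). In all, 4 of 11 complement genes rose and 1 fell (6.79% and 5.14% over all genes), and 3 or 4 rose without 1 array. Lgmn, the lysosomal protease legumain, rose from 8.23 and 8.65 to 10.70 and 10.71 (2.27 ± 0.17, adjusted p = 0.00163), as 1 of 6 among 28 lysosomal genes that rose, with 0 lower and a median of 0.19. Without 1 array the 6 became 1, or 3 without Pou2af1 replicate 2. Mlkl, the executor of necroptosis, rose from 7.58 and 7.50 to 9.80 and 9.69 (2.20 ± 0.22, adjusted p = 0.0034), as 1 of 4 among 17 inflammasome and caspase genes, of which 1 or 2 rose without 1 array. Pmaip1, the apoptosis activator Noxa, rose from 9.55 and 9.41 to 10.75 and 10.70 (1.24 ± 0.10, adjusted p = 0.00188).

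Receptors for nucleotides, lipids and chemoattractants gave 11 higher and 0 lower genes of 29 tested, with a median of 0.30, and 4 or 5 rose without 1 array. Fpr2, a formyl peptide receptor, rose from 7.46 and 6.65 to 9.70 and 9.75 (2.67 ± 0.25, adjusted p = 0.00284) and Gpr35 from 7.59 and 7.82 to 8.97 and 9.22 (1.39 ± 0.14, adjusted p = 0.00382). Adm, the vasodilator peptide adrenomedullin, rose from 7.94 and 7.73 to 10.56 and 10.01 (2.45 ± 0.20, adjusted p = 0.00185). The haem-degrading enzyme Hmox1 rose from 11.31 and 11.45 to 12.35 and 12.36 (0.98 ± 0.10, adjusted p = 0.00394), among 23 NRF2 and stress genes of which 7 rose and 2 fell (median 0.14; 3 or 4 and 0 without 1 array). In all 4 genes the groups were apart by more than the spread within either, and the calls held without any 1 array.

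The lowest differences were in genes of several kinds, among them a regulator of red cells and platelets, an integrin chain and a lipid enzyme. Strbp, a double-stranded RNA-binding protein, fell from 11.69 and 11.75 to 9.57 and 9.57, by 2.15 on the log2 scale (SE 0.14, adjusted p = 0.00128). Of its 6 other probe sets 5 differed by −2.84 to −1.99 and 1 by −0.02. Gfi1b, a repressor required for red cells and platelets, fell from 11.09 and 11.16 to 9.10 and 9.13, by 2.01 (SE 0.10, adjusted p = 0.000497). Itgb7, an integrin chain for homing to the gut, fell from 11.18 and 11.29 to 9.34 and 9.65, by 1.74 (SE 0.13, adjusted p = 0.0015). Mageh1 fell from 10.11 and 9.68 to 8.00 and 8.09, by 1.85 (SE 0.16, adjusted p = 0.00226), and Dgat2, which makes triglycerides, from 10.62 and 10.41 to 8.78 and 8.93, by 1.66 (SE 0.12, adjusted p = 0.00145). All of them held in each fit without 1 array. Of 14 erythroid and megakaryocyte genes 1 rose and 3 fell (6.79% and 5.14% over all genes), and 1 or 2 fell without 1 array.

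Granulocyte genes moved in both directions. Of 13 tested 4 fell and 2 rose (5.14% and 6.79% over all genes), with a median of 0.17, and 3 fell in each fit without 1 array. Lcn2, the iron-binding lipocalin, fell from 7.51 and 7.83 to 6.18 and 6.14, by 1.51 (SE 0.14, adjusted p = 0.00277), Wfdc21 from 10.52 and 10.51 to 8.87 and 9.05, by 1.56 (SE 0.11, adjusted p = 0.00137), and the cathelicidin gene Camp from 11.49 and 11.59 to 10.31 and 10.38, by 1.19 (SE 0.12, adjusted p = 0.00397). Saa3, an acute phase protein of macrophages, fell from 10.04 and 9.72 to 8.39 and 8.21, by 1.58 (SE 0.14, adjusted p = 0.00253). The calprotectin subunit S100a8 read 14.23 and 14.08 against 13.50 and 13.29, was called at −0.76 ± 0.13 and was not called once any 1 array was left out (−0.86 to −0.66). Of the genes called higher, Ctsg, the granule protease cathepsin G, read 4.39 and 4.36 against 5.95 and 5.51 (1.36 ± 0.20), near the background, and kept its call in 1 of the 4 fits without an array (1.14 to 1.58). The cystatin Stfa3 read 6.11 and 5.96 against 6.90 and 7.38 (1.10 ± 0.17), a call lost without scramble replicate 1 (1.17) or 2 (1.02).

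Genes called lower outnumbered those called higher in the MYC and the glycolysis and hypoxia groups. Of 20 genes of the MYC group 9 fell and 1 rose, with a median of −0.31, but 0 fell without either scramble array, 1 without Pou2af1 replicate 1 and 3 without Pou2af1 replicate 2. Myc read 12.46 and 12.49 with scramble shRNA and 11.70 and 11.80 in the labelled arrays (−0.72 ± 0.10, adjusted p = 0.00885), with −0.77 to −0.67 when 1 array was left out, and it was called in 1 of those 4 fits. Nolc1, a nucleolar chaperone, read 10.82 and 10.78 against 10.06 and 9.96 (−0.79 ± 0.10), and the RNA polymerase I subunit Polr1b 7.80 and 7.93 against 6.57 and 6.97 (−1.09 ± 0.18). Each of them was called in 1 of the 4 fits, at −0.84 to −0.74 and −1.29 to −0.90. Of 22 glycolysis and hypoxia genes 7 fell and 3 rose (median −0.20), and 1 to 3 fell without 1 array. The hypoxia-induced mitophagy receptor Bnip3 fell from 11.81 and 11.76 to 10.90 and 10.92, by 0.88 (SE 0.09, adjusted p = 0.0045), and the hypoxia-induced Ankrd37 from 8.72 and 8.67 to 7.09 and 7.24, by 1.53 (SE 0.11, adjusted p = 0.0015). Hk3, the hexokinase of myeloid cells, moved the other way, from 8.87 and 9.0 to 10.98 and 10.87 (1.99 ± 0.11, adjusted p = 0.000681). These 3 calls held without any 1 array. Of 40 DNA replication and mitosis genes 4 rose and 4 fell (6.79% and 5.14% over all genes), with a median of −0.08, and at most 1 rose and 2 fell without 1 array. Those that rose include Mcm10, which passed the filter only through the labelled arrays.

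**Figure D4:**
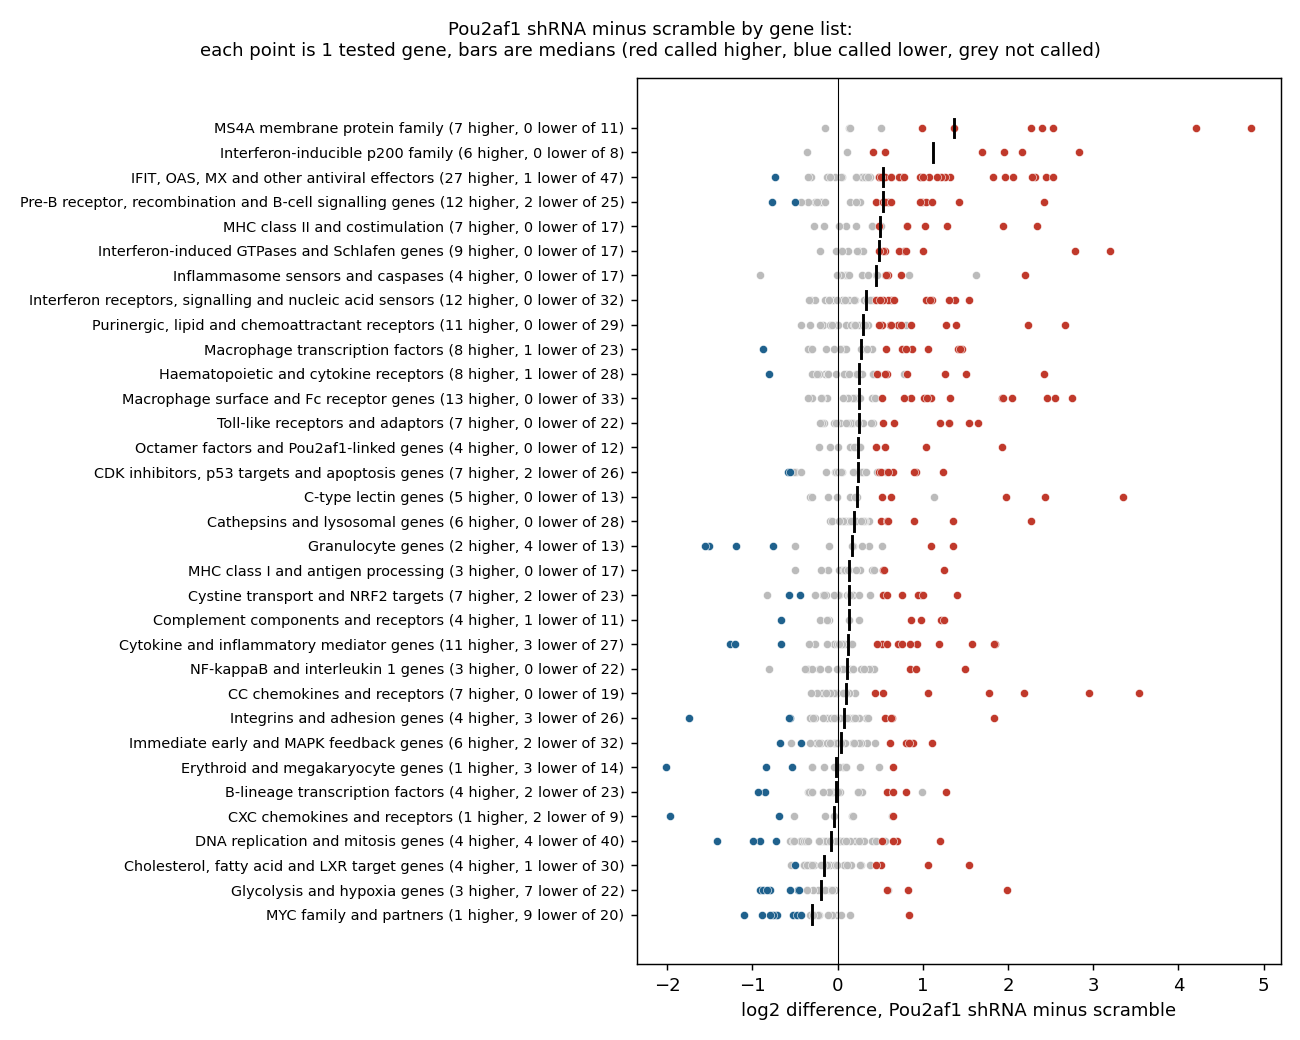
Log2 difference, arrays labelled Pou2af1 shRNA minus scramble (horizontal axis), of every tested member of 33 gene lists, ordered by their median (black bar); red points were called higher, blue lower and grey not called. The MS4A family has the highest median (1.37) and the MYC group the lowest (−0.31), against −0.03 over all genes tested.

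The Ebf1 shRNA arrays were compared with the same 2 scramble arrays, so both differences share their control, and the direct comparison of the shRNA groups tests where they differ. That comparison called 2048 of 12484 genes (16.4%), 1162 higher (9.31%) and 886 lower (7.1%) in the arrays labelled Pou2af1 shRNA. Of the 47 antiviral effectors, 27 rose and 1 fell in the labelled arrays against scramble, 1 rose and 29 fell with Ebf1 shRNA against scramble (over all genes 6.21% and 8.16%), and 40 were higher and 2 lower in the direct comparison, with a median of 1.04. Ifit3 stood at 8.59 and 8.40 with Ebf1 shRNA, 3.76 below the labelled arrays (adjusted p = 0.000102). Ifnb1 stood at 5.09 and 5.35, under the 40th percentile of both Ebf1 shRNA arrays and called lower than the labelled arrays (adjusted p = 0.000328), with a size limited by the background.

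Cxcl2 was at 12.13 and 12.17 with Ebf1 shRNA and at 7.54 and 7.49 in the labelled arrays, a difference of −4.64 (adjusted p = 2.92e-05) with the scramble arrays between them. Wfdc21, at 12.97 and 12.98, and Osm, at 10.38 and 10.24, were arranged in the same way, with differences of −4.02 and −2.97. Of the 22 glycolysis and hypoxia genes 1 was higher and 12 were lower in the direct comparison, and 10 had risen and 2 fallen with Ebf1 shRNA against scramble. Igll1 was at 7.30 and 7.76 with Ebf1 shRNA, 2.16 below the labelled arrays (adjusted p = 0.000637).

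Other genes stood close together in both shRNA groups and apart from scramble. Clec4n was at 11.00 and 10.96 with Ebf1 shRNA, and the direct difference was 0.22 ± 0.13 (adjusted p = 0.297). For Cd74, at 12.63 and 12.70, it was 0.20 ± 0.15 (adjusted p = 0.418), for Msr1, at 9.65 and 9.88, −0.21 ± 0.12 (adjusted p = 0.282), and for Il7r, at 9.16 and 9.13, 0.34 ± 0.10 (adjusted p = 0.0805). A p above the threshold does not show that these levels were equal. Ms4a6b, at 7.73 and 7.62 with Ebf1 shRNA, and Ms4a6c, at 8.95 and 8.80, lay between scramble and the labelled arrays, 2.73 and 2.06 below the latter (adjusted p = 0.000561 for both).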

How the data were processed

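RNA of 25 mouse samples was measured on 25 Affymetrix arrays. The authors deposited log2 values per probe set, computed with RMA per the submitters' processing notes; no version is stated there. The number of arrays limits the precision. Whether replicates came from separate cultures is not labelled, so the p-values reflect the spread among these samples, which may be technical.

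Of 45101 probe sets, 34945 had 1 gene symbol and named 18193 genes, each represented by the brightest of its probe sets, by the mean of all arrays; 932 probe sets with several symbols named none. The 6 induced macrophage arrays were fitted with limma 3.58.1 (lmFit and eBayes, 3 residual degrees of freedom) in R 4.3.3. Testing required a signal over the array's 40th percentile in 2 or more of these arrays, which left out 5709 genes. Genes with a Benjamini-Hochberg adjusted p (two-sided) under 0.05 over all 12484 were called, and 3625 had an unadjusted p under 0.05. Errors of differences are limma's SE, and adjustment was separate for each comparison. Of 756 called genes with further probe sets past the filter, 680 had all of them in 1 direction. The fits were tested on simulated data.

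The members, the 38 gene lists and the tests were chosen with earlier results of these data known, and list counts carry no test of their own. These counts include genes, such as Iigp1 and Ccl12, that passed the filter only through the labelled arrays. Named genes were the shRNA targets, the 15 highest and 15 lowest called differences without overlap (clone-style symbols passed over), up to 6 called members per direction and 3 not called from each list, all members of the octamer, B factor, B receptor, macrophage factor and MS4A lists, and cell type markers. Promoter windows came from RefSeq tables of GRCm38.p6 and matched 10088 tested genes. Alternatives were other filters, probe set rules, normalizations, models, a replicate block and each array left out.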

Additional observations from a re-analysis of the deposited data

How the results depend on the processing

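The 1490 called genes (848 higher, 642 lower) became 2551 (1279 and 1272) with a mean-variance trend and robust fitting, 379 (260 and 119) with all 25 arrays in 1 model, 359 (275 and 84) with a minimum log2 change of 1, and 923 with no filter, of which 332 were lower; the causes were not tested. Leaving out 1 array gave 355 to 450 called genes, 253 to 312 higher and 87 to 156 lower; a single remaining array then borrows its spread from the other groups. The direct comparison of the shRNA groups gave 720 genes with all 25 arrays, 574 with the minimum change, and 892 to 1719 with 1 array left out (892 and 931 without Pou2af1 replicates 1 and 2). The Ebf1 shRNA comparison gave 1120 with no filter, 2856 with the trend, 475 with all 25 arrays, 410 with the minimum change, and 507 to 1295 with 1 array left out (507 and 624 without scramble replicates 1 and 2). The split of 848 higher and 642 lower was 837 and 696 after centring and 848 and 681 after quantile normalization. The fit on 4 arrays gives no value for either Ebf1 comparison.

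Same-numbered arrays did not deviate together (correlations over genes of 0.0076 for scramble and Pou2af1, 0.0495 for scramble and Ebf1 and 0.0076 for Pou2af1 and Ebf1). With 2 arrays a group this cannot show that same-numbered samples share nothing but a number, and the labels do not say. The replicate block gave 1085 called genes. The difference of Pou2af1 itself was called under no alternative. Ebf1 turned from −0.08 to 0.28 with the mean of its probe sets. Among named genes, all 25 arrays ended 54 calls, the minimum change 24, no filter 5, shared probe sets left out 5 and the replicate block 3. Groups of 2 arrays limit what can be called, and signals under the 40th percentile set bounds rather than sizes.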

Other observations

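Several genes with a large difference belong to no group described so far. Of the genes with the 15 highest and 15 lowest differences, Gpr176, an orphan receptor, read 4.81 and 4.73 with scramble shRNA and 7.54 and 6.95 in the arrays labelled Pou2af1 shRNA, with the scramble arrays under the 40th percentile. It passed the filter only through the labelled arrays, so the difference is given with no test and no exact size. Cpm, a carboxypeptidase of the macrophage surface, fell from 8.83 and 8.62 to 7.28 and 7.05, by 1.56 on the log2 scale (SE 0.15, adjusted p = 0.00284), and the ubiquitin ligase Rnf125 from 8.36 and 8.31 to 6.75 and 6.87, by 1.52 (SE 0.10, adjusted p = 0.00118). Tgm2, a transglutaminase, read 8.91 and 8.83 against 7.41 and 6.93 (−1.69 ± 0.27, adjusted p = 0.0148) and was called in 1 of the 4 fits without an array, at −1.93 to −1.45.

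Over all genes 6.79% were called higher and 5.14% lower. Of lipid genes 4 rose and 1 fell of 30 tested, with a median of −0.16. The 4 include Ch25h, which passed the filter only through the labelled arrays. Apoc2, a cofactor of lipoprotein lipase, rose from 12.52 and 12.64 to 13.63 and 13.65 (1.06 ± 0.10, adjusted p = 0.00284), and the NADPH-producing Me1 from 6.84 and 6.61 to 8.25 and 8.00 (1.40 ± 0.14, adjusted p = 0.00394). Of 26 integrin and adhesion genes 4 rose and 3 fell; Itgb3, the beta 3 integrin, rose from 6.57 and 6.55 to 8.35 and 8.45 (1.84 ± 0.13, adjusted p = 0.00139). Of 32 immediate early and MAPK feedback genes 6 rose and 2 fell, among them the phosphatase Dusp4 from 9.96 and 10.05 to 10.83 and 10.86 (0.84 ± 0.10, adjusted p = 0.00601). Apoc2, Me1, Itgb3 and Dusp4 were called in each fit without 1 array. Without 1 array 1 or 2 lipid genes rose and 0 fell, 1 or 2 adhesion genes rose and 1 fell, and 2 or 3 early genes rose and 0 fell.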
